A study of Canis lupus familiaris with 8 samples.

Results

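The MAP kinase dual-specificity phosphatases are enzymes that remove phosphate from both the threonine and the tyrosine of the activation loop of MAP kinases and so switch these kinases off. The set examined here was fixed by gene symbol and held 8 genes, which were DUSP1, DUSP2, DUSP4, DUSP5, DUSP6, DUSP10, DUSP16 and DUSP22. Of these, 7 were found among the 35048 rows of each count table and all 7 passed the filter on low counts that left 20632 genes for testing. DUSP4 was not analysed here. The RNA came from peripheral blood mononuclear cells (PBMCs), the lymphocytes and monocytes separated from blood. The obese group held 5 dogs, namely a Dachshund as dog 1, a Chihuahua as dog 2, Labrador retrievers as dogs 3 and 4, and a Welsh Corgi as dog 5. The normal group held 3 dogs, all Beagles. Since no obese dog was a Beagle, body condition and breed cannot be told apart in any comparison below. The labels do not state the age or sex of the dogs or how obesity was assessed, and each library is labelled as a separate dog.

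MAP kinases pass signals from surface receptors to the nucleus through chains of kinases. Signals of growth factors and antigen receptors run mainly through ERK, and those of stress and microbial products run mainly through p38 and JNK. Many of the phosphatases are themselves induced by the kinases they switch off, so they form a negative feedback loop. In leukocytes, DUSP1 is known as a brake on p38 and JNK after Toll-like receptor stimulation and as a gene induced by glucocorticoids, and DUSP2 was first described as a phosphatase of activated lymphocytes.

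Library totals ran from 10264202 to 14910982 counts, and the members were counted from 104 to 3680 times in each library. Libraries were made from the 3′ ends of transcripts, and levels are given as CPM, the count divided by the scaled library size and set to a common depth. Obese dog 3 stood apart. Its 7 erythroid markers summed to 1171 CPM, against 16.8 to 55.4 CPM in the other obese and 15.9 to 18.1 CPM in the normal dogs. Its 8 neutrophil markers summed to 4637 CPM, within the range of the normal dogs (1254 to 5135 CPM), while the other obese dogs had 160 to 781 CPM. Most of this sum came from S100A8 and S100A12, with 2131 and 1927 CPM in obese dog 3. LTF and CAMP did not follow, with 121 and 12.8 CPM in obese dog 3 and 156 and 126 CPM in obese dog 1. Of the 8 neutrophil markers 3 had a negative and 5 a positive fold change, and 0 passed the threshold given below. Calls below that depend on this dog are given with and without it. In bulk RNA, fewer cells of a type and less RNA per cell cannot be told apart. Markers of T cells, B cells, NK cells and monocytes were detected in every library. Of single markers, MS4A1, the B cell antigen CD20, had 0 counts in normal dog 2, and the NK cell marker NCR1 had 0 counts in obese dog 1.

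None of the 7 members passed the threshold between obese and normal dogs, an adjusted p under 0.05 in edgeR's quasi-likelihood test over all genes. The background of this test was low, with 0.184% of all genes tested lower and 0.0485% higher in the obese dogs. The smallest p-values belonged to DUSP1, DUSP10 and DUSP2, in that order, and each of the 3 had a lower mean in the obese dogs. At an unadjusted p under 0.05, these 3 of 7 members were lower and 0 were higher, where 6.73% of all genes tested were lower and 9.01% were higher. The DESeq2 test also called 0 members, with 2.17% of all genes called lower and 3.08% higher. Limma-voom called 3 members lower, with 9.90% of all genes called lower and 9.12% higher. Fold changes were negative for 5 and positive for 2 of the 7, with a median of −0.62 on the log2 scale. Among all genes tested 44.7% were negative, with a median of 0.09.

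**Figure D1:**
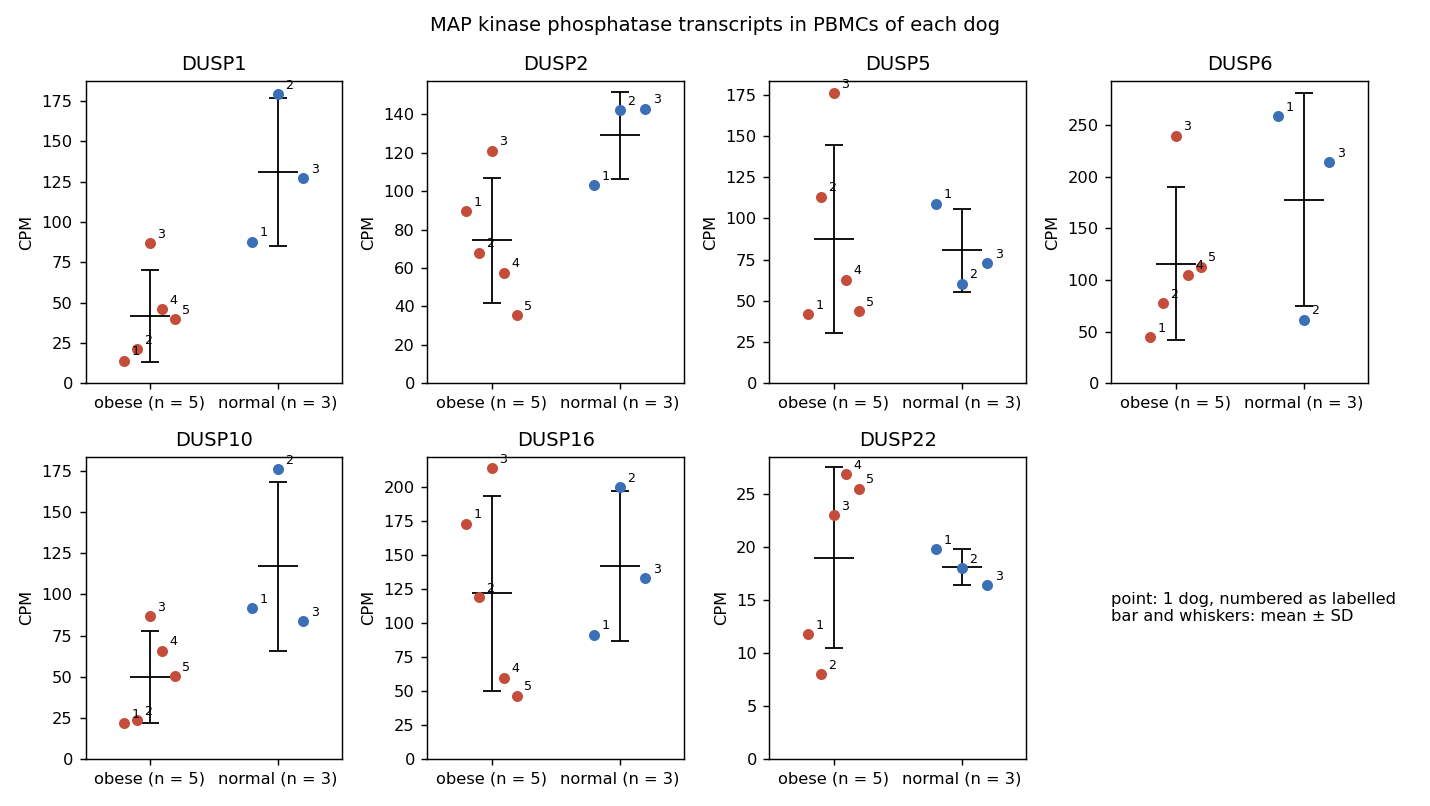
Level of each of the 7 measured phosphatase genes in CPM (y axis, linear from 0) in the 5 obese and 3 normal dogs. Points are dogs with their numbers, and bars with whiskers are means ± SD. Obese dog 3 had the highest level of the obese dogs for 6 genes, and the groups are separate for DUSP1 alone, where obese dog 3 (86.8 CPM) lies just under normal dog 1 (87.8 CPM).

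DUSP1, DUSP2 and DUSP5 belong to the inducible phosphatases of the nucleus. DUSP1, which inactivates p38, JNK and ERK, had 14.0, 21.0, 86.8, 45.8 and 39.7 CPM in obese dogs 1 to 5 and 87.8, 179 and 127 CPM in normal dogs 1 to 3. All 5 obese dogs lay below all 3 normal dogs, but obese dog 3 and normal dog 1 were separated by less than their counting error. The exact Poisson 95% intervals, which cover counting error only, were 80.7 to 93.1 CPM in obese dog 3 and 83.0 to 92.8 CPM in normal dog 1. The group means were 41.4 ± 28.5 CPM (SD, n = 5) and 131 ± 45.8 CPM (SD, n = 3), so the normal mean was 3.17 times the obese mean. The log2 fold change of DUSP1 was −1.66 with a standard error of 0.510 (edgeR adjusted p = 0.186). Permuting the dogs over all 56 possible splits (exact test, two-sided) gave p = 0.0536 before adjustment, where 0.0179 is the smallest p possible. DUSP1 was the only member whose groups did not overlap, while 5.16% of all genes tested were separate and lower and 5.75% were separate and higher in the obese dogs. With the size factors of DESeq2 in place of TMM scaling the groups of DUSP1 did overlap.

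DUSP1 shares 155 bases with an uncharacterised long non-coding RNA gene in the reference annotation. That gene had 10565 counts over the 8 libraries against 7568 for DUSP1. Its level was 11.9, 16.3, 302, 46.8 and 47.1 CPM in obese dogs 1 to 5 and 107, 234 and 145 CPM in normal dogs 1 to 3, so obese dog 3 was the highest of all. With its counts added to those of DUSP1, the log2 fold change was −1.22 (edgeR adjusted p = 0.488). No source used here states whether the counting took account of strand. Reads in the 155 shared bases therefore cannot be assigned to 1 of the 2 genes, and their number is not known from the counts.

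DUSP2, which acts on ERK and p38 and is found in activated lymphocytes and myeloid cells, had 89.4, 67.9, 121, 57.5 and 35.3 CPM in the obese dogs. The normal dogs had 103, 142 and 143 CPM. Obese dog 3 lay above normal dog 1, and the other obese dogs lay below all normal dogs. The means were 74.3 ± 32.7 CPM (SD, n = 5) and 129 ± 22.5 CPM (SD, n = 3), with a log2 fold change of −0.80 and a standard error of 0.353 (edgeR adjusted p = 0.308).

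DUSP5, a nuclear phosphatase specific for ERK, did not follow DUSP1 and DUSP2. Obese dogs 1 to 5 had 41.9, 113, 176, 62.8 and 43.6 CPM, and normal dogs 1 to 3 had 109, 60.4 and 72.8 CPM. Both the highest and the lowest level belonged to obese dogs, and the normal dogs lay between them. The log2 fold change was 0.12 with a standard error of 0.478 (edgeR adjusted p = 0.933). Leaving out obese dog 3 gave −0.34, and leaving out normal dog 1 gave 0.40.

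DUSP6 is the cytoplasmic phosphatase of ERK and a standard transcriptional readout of ERK activity. Its level was 44.8, 77.8, 240, 105 and 113 CPM in obese dogs 1 to 5. Normal dogs 1, 2 and 3 had 259, 61.5 and 214 CPM. Normal dogs 1 and 3 were among the 3 highest of all dogs, whereas normal dog 2 was below all obese dogs except dog 1. The normal group was therefore nearly as uneven as the obese one, with coefficients of variation of 58.1% in the normal and 63.9% in the obese dogs. The log2 fold change was −0.62 with a standard error of 0.550 (edgeR adjusted p = 0.622). It was −0.24 without normal dog 1, −1.05 without normal dog 2 and −1.10 without obese dog 3, and none of these passed the threshold (edgeR adjusted p = 0.885, 0.612 and 0.161).

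DUSP10 and DUSP16 inactivate JNK and p38. DUSP10, which restrains cytokine production by T cells and macrophages, had 21.6, 23.5, 86.9, 65.9 and 50.2 CPM in the obese dogs. Its level in the normal dogs was 91.5, 176 and 83.6 CPM. Obese dog 3 lay between normal dogs 1 and 3, and the other obese dogs lay below. The means were 49.6 ± 27.9 CPM (SD, n = 5) and 117 ± 51.1 CPM (SD, n = 3), a normal mean of 2.36 times the obese mean. The log2 fold change was −1.24 with a standard error of 0.466 (edgeR adjusted p = 0.252), and it was −0.85 without normal dog 2. The exact permutation p was 0.0714 for DUSP10 and 0.0714 for DUSP2.

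DUSP10 overlaps an uncharacterised long non-coding RNA gene over 3212 bases. This gene was at 0.340 to 2.45 CPM in the obese dogs (3 to 44 counts) and at 7.59, 9.74 and 9.18 CPM in the normal dogs, with no overlap between the groups. Its log2 fold change was −2.79 with a standard error of 0.606 (edgeR adjusted p = 0.0932). It held 428 counts in all against 7552 for DUSP10, and with the counts of both added the log2 fold change of DUSP10 was −1.31.

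DUSP16, which shuttles between nucleus and cytoplasm and acts on JNK above all, had 173, 119, 214, 59.9 and 46.6 CPM in the obese dogs. The normal dogs, at 91.3, 200 and 133 CPM, fell inside that range. Obese dogs 4 and 5 were the lowest of all 8 dogs and obese dog 3 was the highest. The log2 fold change was −0.21 with a standard error of 0.487 (edgeR adjusted p = 0.868). DUSP16 shares 253 bases with CREBL2, a gene for a small leucine zipper protein, which had 50.2 ± 9.01 CPM (SD, n = 5) in the obese and 49.9 ± 6.73 CPM (SD, n = 3) in the normal dogs.

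DUSP22 is an atypical member without the kinase-docking domain of the others and is known to act on the kinase LCK in T cells. It was counted least. Obese dogs 1 to 5 had 11.8, 8.0, 23.0, 26.9 and 25.5 CPM, and normal dogs 1 to 3 had 19.8, 18 and 16.4 CPM. The normal dogs lay close together, with obese dogs 3, 4 and 5 above and obese dogs 1 and 2 below them. The means were 19.0 ± 8.56 CPM (SD, n = 5) and 18.1 ± 1.72 CPM (SD, n = 3), and the log2 fold change was 0.08 with a standard error of 0.405 (edgeR adjusted p = 0.951).

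Relative to its mean, each measured member varied more among the obese than among the normal dogs, by the coefficient of variation and by the ratio of the highest to the lowest dog. The SD itself was larger in the normal dogs for DUSP1, DUSP6 and DUSP10. The highest obese dog exceeded the lowest by 6.22 times for DUSP1 and by 3.36 times for DUSP22, with the others between. In the normal dogs this ratio ran from 1.21 for DUSP22 to 4.21 for DUSP6. A ratio of the highest to the lowest dog tends to be larger in a larger group, so it does not compare 5 and 3 dogs like for like. By the coefficient of variation, every other dual-specificity or related tyrosine phosphatase tested, except DUSP12, also varied more among the obese dogs. DUSP12 had 45.1% in the obese and 46.4% in the normal dogs. The wider relative spread was therefore not particular to the members, and its share over all genes was not taken. The obese group had 5 dogs of 4 breeds and the normal group 3 dogs of 1 breed, so spread and breed cannot be told apart. The pair of Labrador retrievers differed from each other as well. Obese dogs 3 and 4 had 86.8 and 45.8 CPM of DUSP1, 176 and 62.8 CPM of DUSP5, and 214 and 59.9 CPM of DUSP16, but 23.0 and 26.9 CPM of DUSP22.

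The members fell into different orders across the obese dogs. DUSP1 and DUSP10 both ran, from high to low, through dogs 3, 4, 5, 2 and 1. DUSP2 and DUSP16 both ran through dogs 3, 1, 2, 4 and 5. Ratios of counts within a library, which no library scaling enters, show how far the members moved apart. The ratio of DUSP1 to DUSP10 stayed between 0.647 and 0.999 in the obese dogs and between 0.959 and 1.52 in the normal dogs. The ratio of DUSP10 to DUSP16, both phosphatases of JNK and p38, was 0.125, 0.198, 0.406, 1.10 and 1.08 in obese dogs 1 to 5 and 1.00, 0.878 and 0.627 in the normal dogs. Obese dogs 4 and 5 were thus above the normal dogs in this ratio, and obese dogs 1, 2 and 3 were below them. The ratio of DUSP1 to DUSP2 ran from 0.156 in obese dog 1 to 1.12 in obese dog 5, against 0.849 to 1.26 in the normal dogs. By contrast, DUSP1 to DUSP6 ranged more widely in the normal dogs, at 0.339 to 2.91, than in the obese dogs, at 0.269 to 0.435.

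**Figure D2:**
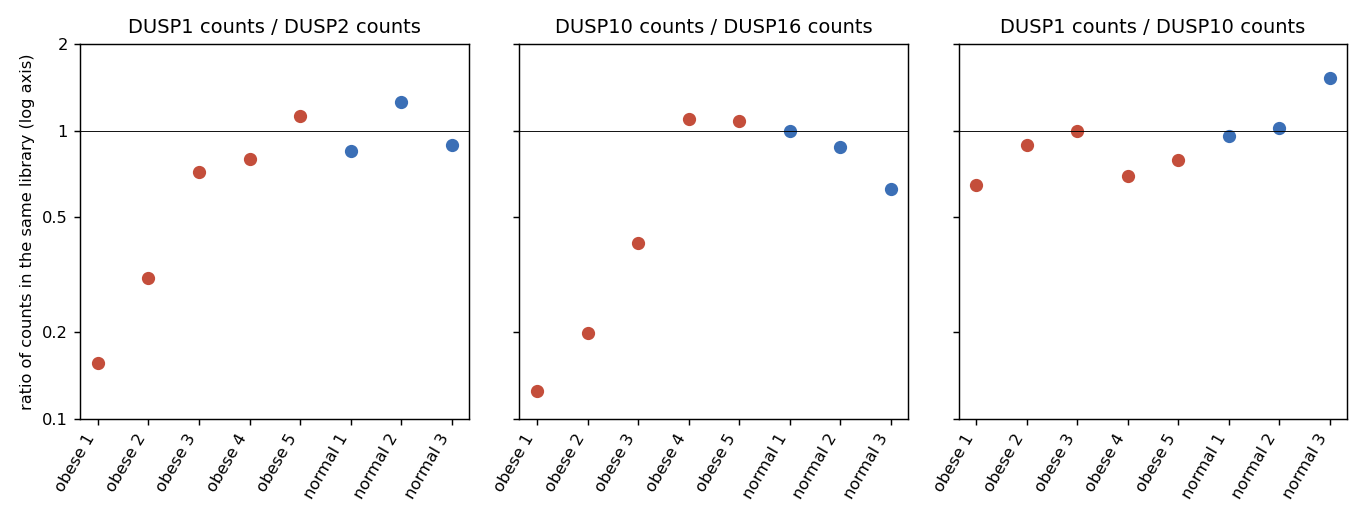
Ratios of counts of 2 members in the same library (y axis, log scale) for each dog (x axis, obese dogs in red, normal dogs in blue). DUSP1 to DUSP10 stays between 0.647 and 1.52 in all dogs, whereas DUSP10 to DUSP16 runs from 0.125 in obese dog 1 to 1.10 in obese dog 4.

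Which members passed the threshold depended on obese dog 3. This dog had the highest level of the obese group for 6 of the 7 members, the exception being DUSP22. Without it, DUSP1, DUSP2 and DUSP10 were lower in the obese dogs past the threshold. Their log2 fold changes were then −2.15, −1.08 and −1.57, with edgeR adjusted p-values of 0.0142, 0.0498 and 0.0496. The last 2 lie just under the threshold of 0.05. Without this dog 5.03% of all genes tested were called lower and 3.25% higher, so calls were more numerous over all genes as well as among the phosphatases. A limma-voom fit that gives weights to libraries by their quality called the same 3 members lower, with log2 fold changes of −1.88, −1.22 and −1.10, and in that fit 9.90% of all genes were called lower and 9.12% higher. In the fits without 1 of the other 7 dogs, 0 members were called. Those fits called few genes of any kind, 0 to 3 higher and 2 to 33 lower over all genes.

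**Figure D3:**
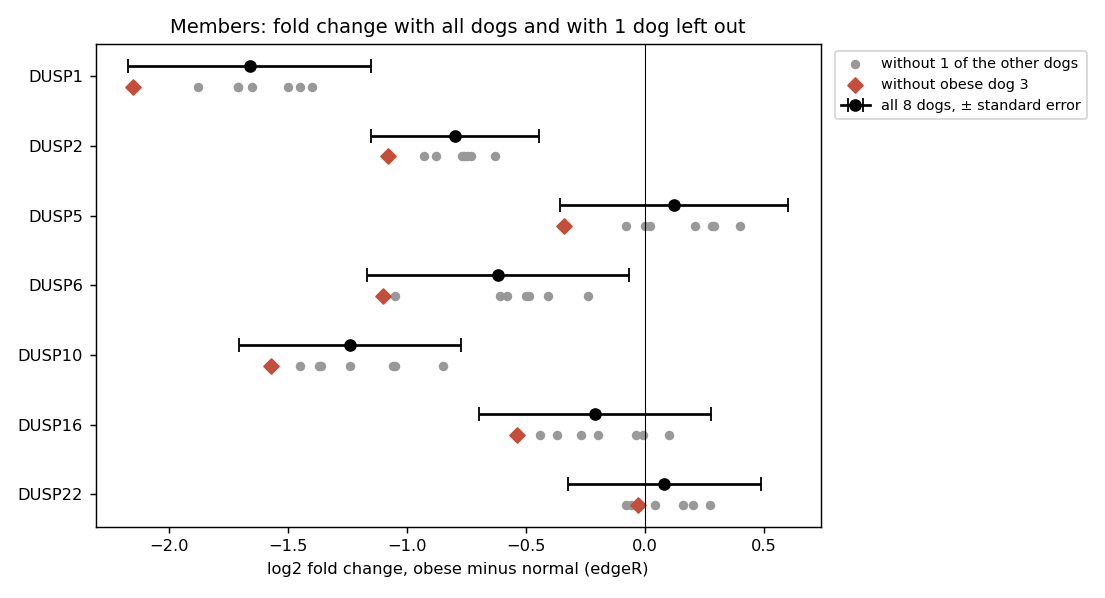
Log2 fold change of each member, obese minus normal (x axis), from edgeR. Black points with whiskers are the value with all 8 dogs ± its standard error, red diamonds the value without obese dog 3 and grey points the values without 1 of the other dogs. DUSP1 runs from −2.15 to −1.40 and DUSP10 from −1.57 to −0.85, while DUSP5, DUSP16 and DUSP22 have values on both sides of 0.

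The summed levels of the markers of several cell types also varied between these libraries. The summed level of the plasma cell markers was lower in every obese dog than in any normal dog. Of the 7 plasma cell markers 6 were tested, fold changes were negative for all 6 (median −2.80 on the log2 scale), and the groups did not overlap for 5. Over all genes tested, 5.16% were separate and lower in the obese dogs. SDC1, the marker not tested, was near 0 and not lower, at 0 to 0.875 CPM in the obese and 0.0638 to 0.211 CPM in the normal dogs. The plasma cell markers summed to 33.1 to 83.0 CPM in the obese and 154 to 814 CPM in the normal dogs. TNFRSF17, the receptor BCMA of plasma cells, was the 1 marker of this list that passed the threshold (log2 fold change −4.39, edgeR adjusted p = 0.0228). The 9 monocyte markers summed to 871 to 1997 CPM in the obese dogs, highest in dog 3, and to 1868 to 2998 CPM in the normal dogs. Single monocyte genes differed from one another. VCAN, a matrix protein of classical monocytes, had 201 to 851 CPM in the obese and 920 to 2191 CPM in the normal dogs, whereas CD14 had 10.1 to 32.6 and 7.19 to 28.3 CPM. Of the 9 monocyte markers 4 had a negative and 5 a positive fold change, and 0 passed the threshold. The 9 T cell markers all had a positive fold change, with a median of 1.24, and 0 passed the threshold. They summed to 352 to 964 CPM in the obese and 251 to 302 CPM in the normal dogs. Of the 7 platelet markers listed, 5 had a row and 0 passed the threshold. These 5 summed to 66.3 to 1230 CPM in the obese and 7.19 to 31.1 CPM in the normal dogs. No marker with a row was at 0 in all libraries, but the erythroid marker AHSP was at 0 in all 3 normal dogs and the neutrophil marker CXCR2 at 0 in obese dogs 1 and 5 and normal dog 1. The part of these cell types in the levels of the phosphatases was not tested.

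Of the other dual-specificity phosphatases and related tyrosine phosphatases, 21 had a row and 17 were tested. Of these, 1 was called higher and 0 lower in edgeR (2 were higher and 0 lower at an unadjusted p under 0.05), and the median log2 fold change was 0.32. The DESeq2 test called 2 higher, DUSP28 and DUSP26, and limma-voom called 3 higher, DUSP28, DUSP8 and PTPN7. Both called 0 lower, and their shares over all genes called higher were 3.08% and 9.12%. The gene called higher in edgeR was DUSP28. Its level was 7.83, 12.2, 7.60, 17.7 and 9.97 CPM in obese dogs 1 to 5, and normal dogs 1 to 3 had 1.83, 1.77 and 1.34 CPM. Its log2 fold change was 2.75 with a standard error of 0.436 (edgeR adjusted p = 0.0424), and 2.51 to 2.85 in the 8 fits that left out a dog. DUSP28 passed the threshold in 1 of these fits, that without obese dog 3, where 3.25% of all genes were called higher. The other fits called only 0 to 3 of all genes higher. DUSP28 lies within the span of ANKMY1, which had 8.17 to 18.8 CPM in the obese and 1.99 to 2.25 CPM in the normal dogs, so reads of these genes cannot be told apart. DUSP26, an atypical phosphatase, had 260 and 60.8 CPM in obese dogs 1 and 2, 10.8 to 19.4 CPM in the other obese dogs and 7.52 to 8.29 CPM in the normal dogs. The groups were separate, but the gene did not pass in edgeR (edgeR adjusted p = 0.251). PTPN7, a tyrosine phosphatase of ERK and p38 in lymphocytes, and DUSP8, a phosphatase of JNK and p38, had log2 fold changes of 0.77 and 1.32 and did not pass in edgeR either (edgeR adjusted p = 0.410 and 0.389).

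In the kinase cascade that the phosphatases switch off, 29 of 30 listed genes were tested, with 14 negative and 15 positive fold changes and a median of 0.01. MAPK12 had 0 counts in all libraries. In edgeR 1 gene was called lower and 0 higher, with 3 lower and 2 higher at an unadjusted p under 0.05. The DESeq2 test called 2 lower and 1 higher, where it called 2.17% of all genes lower and 3.08% higher. Limma-voom called 5 lower and 4 higher, where its shares over all genes were 9.90% and 9.12%. The gene called lower in edgeR was MAP3K8, the kinase that links Toll-like receptors to ERK. Its level was 4.54 to 10.6 CPM in the obese dogs, and the normal dogs ranged from 65.0 to 86.3 CPM. The log2 fold change of MAP3K8 was −3.16 with a standard error of 0.297 (edgeR adjusted p = 0.00661), and it passed in each of the 8 fits that left out a dog. MAPK14, which encodes p38 alpha, a substrate of DUSP1 and DUSP10, came next. Obese dogs 1 to 5 had 93.5, 68.0, 146, 68.5 and 95.6 CPM, and normal dogs 1 to 3 had 201, 731 and 279 CPM. The groups did not overlap, and the log2 fold change of −2.10 with a standard error of 0.417 did not pass (edgeR adjusted p = 0.0747). Without normal dog 2 the log2 fold change of MAPK14 was −1.38 (edgeR adjusted p = 0.245), and without obese dog 3 it was −2.34 and passed (edgeR adjusted p = 0.00948). MAP2K7, which activates JNK, had 9.82 ± 2.68 CPM (SD, n = 5) in the obese and 4.15 ± 0.245 CPM (SD, n = 3) in the normal dogs (edgeR adjusted p = 0.166). Without obese dog 3, MAP2K7 passed with a log2 fold change of 1.33 (edgeR adjusted p = 0.0365), as did the ERK activator MAP2K2 with −1.18 (edgeR adjusted p = 0.0416), which was named after its values were seen. That fit called 3 cascade genes lower and 1 higher, where 5.03% of all genes tested were called lower and 3.25% higher. MAP2K3, which activates p38, had 109 ± 40.9 CPM (SD, n = 5) against 183 ± 22.4 CPM (SD, n = 3), and its groups overlapped (edgeR adjusted p = 0.303).

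Of the genes that respond to ERK or feed back on it, 22 of 24 were tested and 0 passed in either direction, with 5 lower and 1 higher at an unadjusted p under 0.05 (edgeR). The DESeq2 test called 3 lower and 1 higher (2.17% and 3.08% of all genes), and limma-voom 9 lower and 1 higher (9.90% and 9.12% of all genes). The median log2 fold change was −0.21. EGR1, an immediate-early transcription factor induced by ERK, had 6.41 to 89.1 CPM in the obese and 598 to 1013 CPM in the normal dogs (edgeR adjusted p = 0.0519). FOS, its partner among immediate-early genes, had 26.2, 11.4, 148, 117 and 109 CPM in obese dogs 1 to 5, and normal dogs 1 to 3 had 301, 490 and 440 CPM (edgeR adjusted p = 0.179). MCL1, a survival protein of the BCL2 family, had 65.9 to 91.4 CPM in the obese and 105 to 211 CPM in the normal dogs (edgeR adjusted p = 0.113). CCND1, which encodes cyclin D1, ran the other way at low levels, with 11 to 128 counts in the obese and 2 to 7 counts in the normal dogs (edgeR adjusted p = 0.130). Without obese dog 3, edgeR called 4 genes of this list lower and 1 higher, where 5.03% of all genes tested were called lower and 3.25% higher. EGR1, MCL1 and CCND1 were among them, with log2 fold changes of −4.42, −1.15 and 3.24. So were JUN and IER2, with −1.55 and −1.29.

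**Figure D4:**
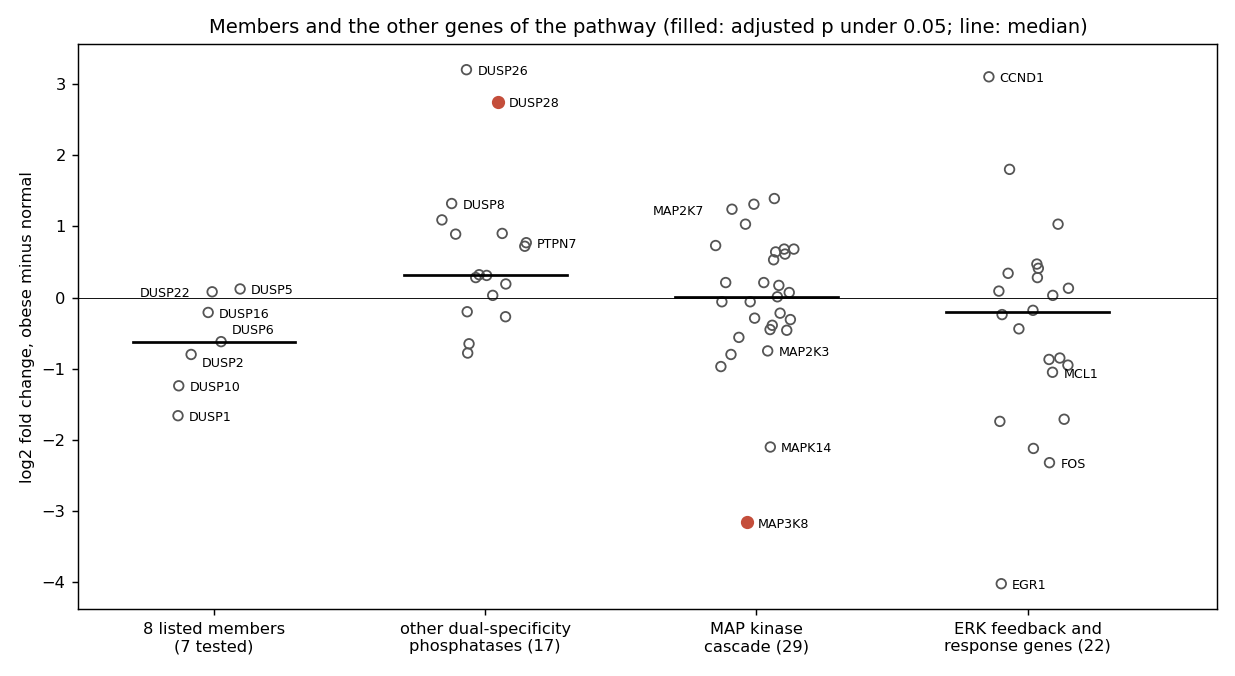
Log2 fold change, obese minus normal (y axis), of the 7 members tested and of 3 lists of other pathway genes (x axis, number of genes tested in brackets). Filled points passed an adjusted p under 0.05 (DUSP28 and MAP3K8), open points did not, lines are medians, and genes taken by the naming rule are labelled. The medians are −0.62 for the members and 0.32, 0.01 and −0.21 for the other lists.

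For each member, the characterised genes with the most similar profile over the 8 dogs were taken by Pearson's r of log2 CPM, among genes with a mean of at least 10 CPM. These r values describe a search over all such genes, the 8 points include the difference between the groups, and no p is attached. Among the genes closest to DUSP1 were TOM1 and NUP42, each with r = 0.973. TOM1 had 35.7 ± 9.30 CPM (SD, n = 5) in the obese and 57.6 ± 11.4 CPM (SD, n = 3) in the normal dogs. Closest to DUSP2 were the p38 activator MAP2K3 and the cholesterol exporter ABCA1, each with r = 0.988, and the phosphodiesterase PDE2A with r = 0.986. ABCA1 had 366 CPM in obese dog 3, 39.1 to 156 CPM in the other obese dogs and 215 to 367 CPM in the normal dogs. DUSP10 was closest to MUC4 (r = 0.978), which had 0.463 to 51.8 CPM in the obese and 22.3 to 505 CPM in the normal dogs, then to UCK2 and RRP12 (r = 0.965 and 0.962). For DUSP16 the nearest genes were FHOD1, MIDN and AK3 (r = 0.976, 0.972 and 0.969). Those of DUSP5 were ANKRD40CL, ANKRD34A and NT5C (r = 0.990, 0.950 and 0.924). Those of DUSP6 were CCDC73, UGGT2 and EIF4A1, with r from 0.934 to 0.937, and those of DUSP22 were PDSS1, SESN1 and TMCO6, with r from 0.920 to 0.943. None of these genes passed the threshold between the groups, with edgeR adjusted p-values from 0.245 to 1.000.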

How the data were processed

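RNA of PBMCs from 5 obese and 3 normal dogs was extracted with Trizol and made into Lexogen QuantSeq 3′ tag libraries, per the labels' protocols. For every dog the authors deposited a table of raw counts, whole numbers by gene symbol. Bowtie2 and bedtools were used, per the submitters' processing notes. Their versions and the genome build were not given in the sources used here, nor was any annotation or strand setting. Where a symbol stood in several rows (500 of 35048 rows), the row with the highest mean was used. Of 34637 distinct symbols, 33000 matched RefSeq's genes for UU_Cfam_GSD_1.0, a table that served for names and overlaps only.

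The main test was edgeR 4.0.16 under R 4.3.3, with filterByExpr by group, TMM scaling and the robust forms of glmQLFit and glmQLFTest. Benjamini-Hochberg adjustment ran over the 20632 genes tested, with 0.05 as threshold. Between dogs the common biological coefficient of variation was 0.540. Standard errors were obtained from the fold change and the F statistic (size over root F). CPM use the TMM-scaled library sizes. The step was tested on simulated counts. Exact permutation tests used log2(CPM + 0.5). Alternatives used DESeq2 1.42.0 and limma 3.58.1.

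The members and lists were chosen with earlier results of these data known. Named genes were the 8 members, the 4 genes of each other list with the smallest p and any past the threshold, and 3 genes per member by likeness, of which 1 is not reported here. The overlapping genes, ANKMY1 and single markers were described outside this rule. Dog numbers stand in both groups but name different dogs.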

Additional observations from a re-analysis of the deposited data

Results flagged for a closer look

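In 28 sets of values from the 5 obese dogs, 3 had a dog far from the others by Dixon's 95% criterion, which chance meets in about 1 set in 20. DUSP26 had 260 CPM in obese dog 1, and the next dog, obese dog 2, had 60.8 CPM. The same dogs had the highest sums of platelet markers, 1230 and 619 CPM, whose part in DUSP26 was not tested. The uncharacterised long non-coding RNA gene that overlaps DUSP1 had 302 CPM in obese dog 3, and the next dog had 47.1 CPM. The ratio of DUSP2 to DUSP5 counts was 2.14 in obese dog 1 and 0.916 in the next obese dog, while the normal dogs had 0.951 to 2.35.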

How the results depend on the processing

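No member changed sign while called in any of 16 alternatives, and DUSP1, DUSP2, DUSP6 and DUSP10 kept a negative fold change in all 16. Adjusted p-values ran from 0.00489 to 0.541 for DUSP1, 0.010 to 0.750 for DUSP2 and 0.0472 to 0.676 for DUSP10. The sign of DUSP5 turned with limma-voom (−0.23) and between −0.34 and 0.40 when 1 dog was left out. DUSP16 turned with the replicate block (0.29) and ran from −0.54 to 0.10 with 1 dog left out. DUSP22 turned with upper-quartile factors (−0.03) and the replicate block (−0.48), and ran from −0.08 to 0.27 with 1 dog left out.

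Members called lower were 3 with limma-voom and 0 to 3 with 1 dog left out. Members without overlap of the groups were 0 with DESeq2 size factors, 2 with upper-quartile factors and 1 to 3 with 1 dog left out. The share of all genes without overlap was taken only with all dogs and TMM scaling. These counts therefore have no background of their own and are not read as a result about the members. With the DESeq2 test and with limma-voom, the other phosphatases called higher were 2 and 3, cascade genes higher 1 and 4 and lower 2 and 5, and ERK response genes higher 1 and 1 and lower 3 and 9. Over all genes these tests called 620 and 1881 higher and 436 and 2043 lower. With 1 dog left out, the counts were 0 to 1 for other phosphatases higher, 0 to 1 and 1 to 3 for cascade genes higher and lower, 0 to 1 and 0 to 4 for ERK response genes, and 0 to 661 and 2 to 1023 for all genes. The cause was not tested. With the dog number as a replicate block, 0 genes were called in either direction, other phosphatases and cascade genes included. The deviations of same-numbered dogs correlated at −0.03, −0.21 and 0.01. With so few dogs these values cannot decide whether the numbers pair the dogs. Each library is labelled as a separate dog.

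The design holds few dogs per group, the breeds differ between the groups, and counting error was small beside the spread between dogs.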

Other observations

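JUN and JUNB, subunits of the AP-1 transcription factor that MAP kinases activate, had their highest levels in obese dog 3. JUN had 1634 CPM in this dog, 35.4 to 104 CPM in the other obese dogs and 144 to 216 CPM in the normal dogs. JUNB had 2466 CPM in this dog, 416 to 737 CPM in the other obese and 803 to 1108 CPM in the normal dogs. With all dogs the log2 fold change of JUN was 1.03 (edgeR adjusted p = 0.737), and without obese dog 3 it was −1.55 and passed the threshold (edgeR adjusted p = 0.0258). IER2, an immediate-early gene, had a log2 fold change of −0.95 with all dogs and −1.29 without that dog (edgeR adjusted p = 0.0335). In the fit without that dog, 5.03% of all genes tested were called lower. JUN, JUNB and IER2 were chosen after their values were seen.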
